A study of Mus musculus with 10 samples.

Results

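The cytosolic ribosomal protein genes encode the proteins of the ribosomes that translate nuclear mRNA. They were taken from the deposited expression table by name: symbols that begin with Rpl or Rps and a digit, or with Rplp, and Rpsa, without the kinase symbols that begin Rps6k, without pseudogene symbols and without Rpl29. A total of 86 rows had such a name, and 84 of them, with 83 symbols, reached 1 FPKM in at least 1 of the 5 fractions. The table held 32361 rows, of which 13595 reached that level. The rows left out were Rpl17, at 0.281 to 0.890 FPKM over the 5 fractions, and Rpl3l, at 0.370 to 0.599 FPKM. The nearest rows above the limit were Rpl11, whose highest value was 1.21 FPKM, and Rpl23a, whose highest value was 1.34 FPKM. Of the 84 rows, 41 encode large subunit proteins, 31 small subunit proteins and 3 the acidic stalk proteins Rplp0, Rplp1 and Rplp2, which makes 75 core rows. A further 8 rows are paralogs, extra copies with their own symbol or locus, and Rps19bp1 encodes a binding partner of a small subunit protein, not a part of the ribosome.

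A eukaryotic ribosome holds a single copy of nearly every one of its proteins, so their supply has to match. Their genes are among the most highly transcribed in growing cells, and their mRNAs carry a run of pyrimidines at the very start, the terminal oligopyrimidine tract, through which mTOR signalling controls their translation. Over evolution these abundant mRNAs were often copied back into the genome, which left many processed pseudogenes, and a few copies remained functional, such as the testis-expressed Rpl39l and Rpl10l.

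RNA came from E14Tg2a.4 mouse embryonic stem (ES) cells, a cultured line, in 2 reporter lines. In the Esrrb and Tbx3 line, both genes carry a knock-in reporter with its own fluorescent protein, and cells were sorted by FACS into cells negative for both reporters (double-negative), Esrrb-positive and Tbx3-negative cells (single-positive) and cells positive for both (double-positive). In the other line, a piggyBac transgene carrying part of the Zscan4c promoter separated Zscan4-positive from Zscan4-negative cells; a promoter fragment need not follow every Zscan4 gene. Zscan4 marks a rare, passing state of ES cells that shares transcripts with the 2-cell embryo. Each of the 5 fractions had 2 libraries, collected on different days, 10 in all, but the table gives 1 FPKM value (fragments normalised to transcript length and to the number of mapped fragments) per fraction. No value therefore has a replicate error or a p-value, depth is unknown, and the differences below are descriptions of these 5 columns. In bulk RNA, fewer cells of a type and less RNA per cell cannot be told apart.

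The sorted genes followed the labels. Esrrb was at 43.3, 177 and 243 FPKM in double-negative, single-positive and double-positive cells, Tbx3 was at 0.638, 1.75 and 12.6 FPKM in that order, and Zscan4c was at 120 FPKM in Zscan4-positive cells against 0.255 FPKM in Zscan4-negative cells. Pou5f1, a general pluripotency factor, was at 1987 to 2762 FPKM in the 5 fractions. The summed FPKM of 12 fibroblast genes was 1733 and 1234 in double-negative and single-positive cells and 21.1 to 32.7 in the other 3 fractions, with Lum and Dcn at or near 0 throughout, and that of 8 T-lineage genes was 530 and 384 against 20.7 to 33.9. Non-ES markers thus differ between the fractions of the Esrrb/Tbx3 line, and their values are given beside the results they move with.

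The reads of a ribosomal protein mRNA can match several places in the genome, and what became of such reads before the FPKM were made is not given in the sources used here. The coding sequences of both Rps27 rows show the extreme case. The table has a row for Rps27 on chromosome 3, a gene with introns, and another under the same symbol on chromosome 9, at chr9:114982453-114982707 (mm10), which GENCODE annotates as the single-exon gene Rps27rt. Their coding sequences of 255 bases are the same in every position in GENCODE M21 (GRCm38, minus strand at both loci), so it is printed once, with no capitals because nothing differs.
Rps27: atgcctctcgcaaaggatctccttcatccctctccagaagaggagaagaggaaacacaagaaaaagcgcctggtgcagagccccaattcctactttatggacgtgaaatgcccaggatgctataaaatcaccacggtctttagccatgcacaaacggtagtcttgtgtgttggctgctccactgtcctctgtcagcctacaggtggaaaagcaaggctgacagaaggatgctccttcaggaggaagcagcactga
Rps27 encodes a zinc finger protein of the small subunit. The chromosome 3 row was at 5.25, 5.23 and 4.48 FPKM in double-negative, single-positive and double-positive cells, at 4.28 FPKM in Zscan4-positive and at 5.07 FPKM in Zscan4-negative cells. The chromosome 9 row was at 796, 848 and 690 FPKM in the 3 states of the Esrrb/Tbx3 line, at 503 FPKM in Zscan4-positive and at 613 FPKM in Zscan4-negative cells. The intron-free copy was thus 118 to 162 times as high as the gene with introns in every fraction, although no stretch of 50 coding bases tells them apart. That row is 255 bases long, the length of the coding sequence alone, and FPKM of so short a row depend on the length correction, whose part in the value was not tested.

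Rpl39l and Rpl39 show the other extreme, a paralog pair whose reads can be told from each other. Rpl39 encodes a small basic protein at the peptide exit tunnel and lies on chromosome X, and Rpl39l, its paralog, lies on chromosome 16 at chr16:10170226-10174911 (GRCm38, plus strand). The 23 bases at which their coding sequences of 156 bases differ (85.3% identity) are in capitals.
Rpl39l: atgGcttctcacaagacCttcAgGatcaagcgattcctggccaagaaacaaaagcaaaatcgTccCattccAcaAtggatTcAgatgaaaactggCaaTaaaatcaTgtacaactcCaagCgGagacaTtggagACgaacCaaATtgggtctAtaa
Rpl39: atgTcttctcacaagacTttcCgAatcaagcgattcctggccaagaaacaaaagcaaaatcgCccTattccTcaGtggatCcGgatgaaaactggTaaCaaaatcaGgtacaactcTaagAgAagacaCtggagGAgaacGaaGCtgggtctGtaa
The longest run without a difference is 38 bases, so every 50-base word of Rpl39l differs from Rpl39, and none of its words was found in a transcript of any other gene. The Rpl10l and Rpl10 pair, whose coding sequences of 645 bases are too long to print here, differed at 98 bases (84.8% identity), and Rps27l differed from Rps27 at 61 of 255 bases (76.1% identity).

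Across the 84 rows, the mean FPKM of the 5 fractions ran from 0.963 to 3293, with a median of 109. There were 16 rows at 1000 FPKM or more, 28 between 100 and 1000, 28 between 10 and 100, and 12 under 10. Among the highest were Rplp1, a stalk protein that recruits elongation factors, at a mean of 3293 FPKM, Rpl41, the smallest ribosomal protein, at 3281, Rpl8, a protein close to the peptidyl transferase centre, at 3276, and Rpl13a at 2537 FPKM. The 10 highest held 52.4% of the FPKM of all 84. The 5 lowest were Rpl23a, a protein at the tunnel exit, at 0.963 FPKM, Rpl11, which with Rpl5 can bind and inhibit Mdm2, at 0.968, Rpl28 at 2.97, Rps6, the S6 kinase target, at 4.23, and Rps27 on chromosome 3 at 4.86 FPKM. These FPKM thus spread over more than 3 orders of magnitude.

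**Figure D1:**
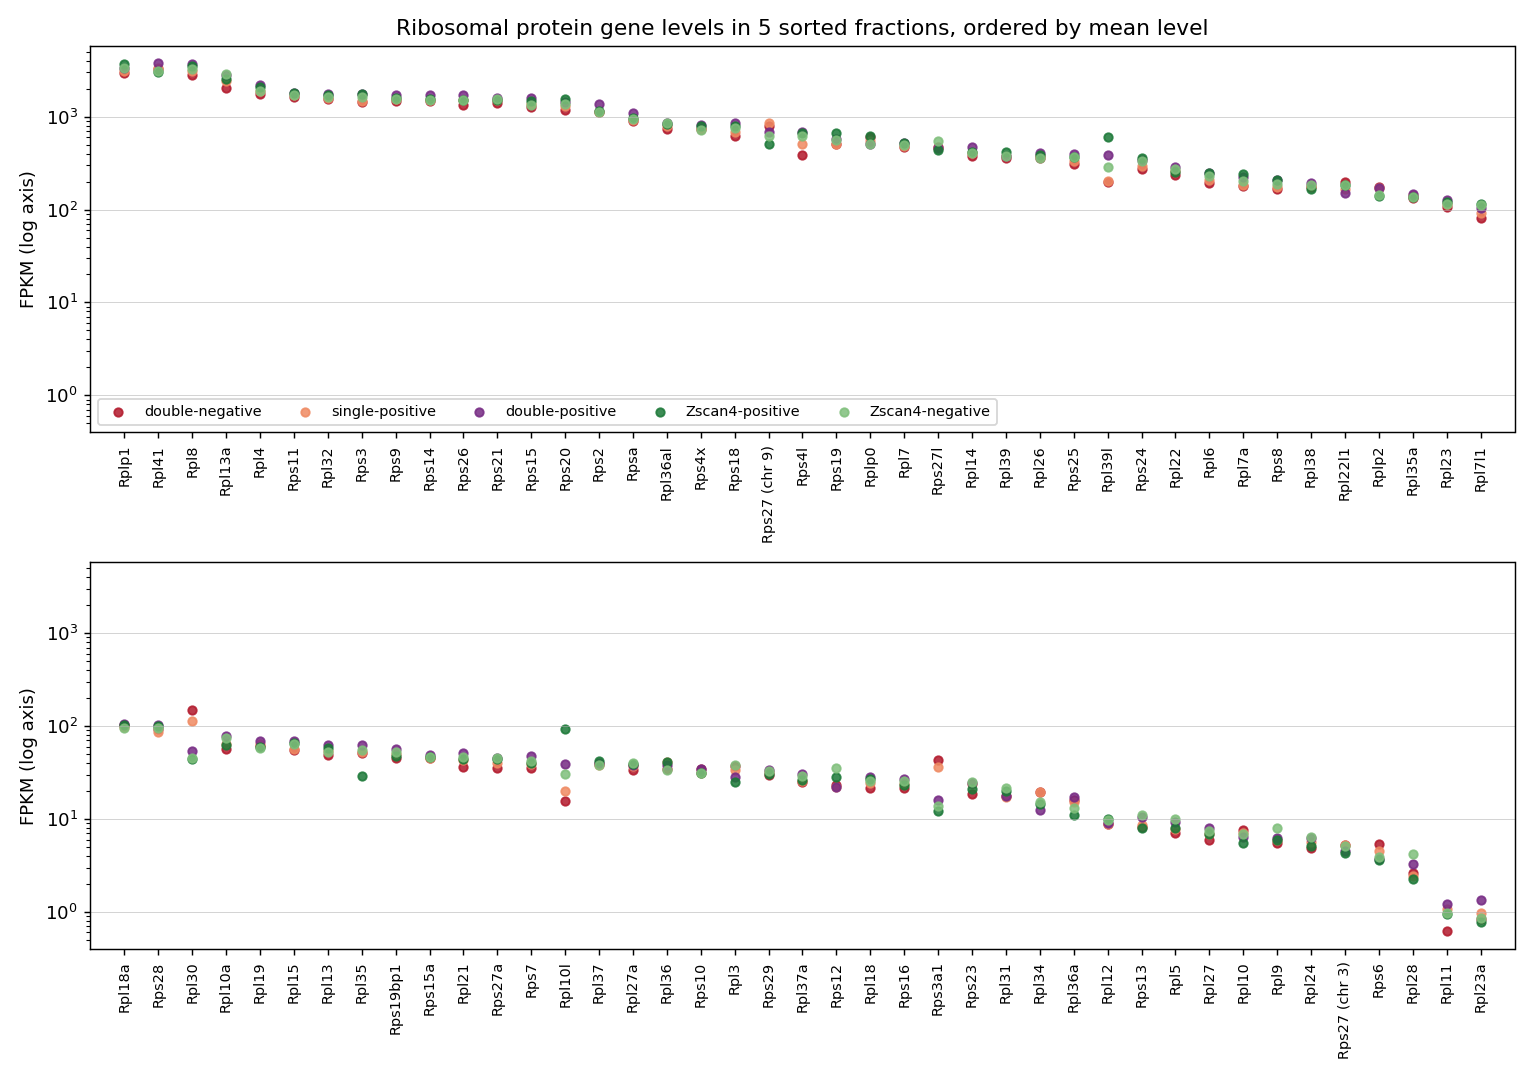
FPKM (log axis) of 82 ribosomal protein gene rows in 5 sorted fractions, ordered by mean level from left to right and continued in the lower panel. For most genes the 5 points nearly coincide, while the means run from 3293 to 0.963 FPKM. Rpl39l, Rpl10l, Rpl30, Rps3a1 and Rpl35 are the 5 whose points spread by more than 1 on the log2 scale.

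Each coding sequence was cut into all its words of 50 bases, and the share of words found in the transcripts of no other gene of GENCODE M21 was counted. The 17 rows with at least 50% unique words had a median of 1515 FPKM, the 26 with 10% to under 50% a median of 349 FPKM, and the 41 with under 10% a median of 37.7 FPKM. All 12 rows under 10 FPKM had at most 0.737% unique words. Of the 16 rows at 1000 FPKM or more, 10 had at least 50%. Across the 84 rows Spearman's rho between the share and the mean FPKM was 0.63, and it was 0.64 with words of 75 bases; the rows share the same libraries, and length and base composition were not held constant. The genes that share words were pseudogenes in 95.5% of cases. Rpl7a shared words with 123 other genes and the median row with 9. Gapdh, a glycolytic enzyme gene known for its many processed copies, had no unique word, shared words with 222 other genes and was listed at 0.845 to 1.24 FPKM. It is 1 of 6 housekeeping genes listed for their many processed copies, and the others were not all low. Ppia was at 0.466 to 0.770 FPKM and Hmgb1 at 14.2 to 20.0 FPKM. Tpt1 was at 201 to 242 FPKM, Ldha at 515 to 757 FPKM and Eef1a1 at 3436 to 4032 FPKM. Shared words of these others were not counted.

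The relation had exceptions in both directions. Among rows with no unique coding word, Rpl41, Rpl38 and Rps27 on chromosome 9 had means of 3281, 179 and 690 FPKM, in that order. These words cover coding sequence only, and reads from untranslated parts could still be unique. Conversely, Rps19bp1, at 50.3 FPKM, and Rpl10l, at 39.9 FPKM, had 100% and 87.6% unique words. FPKM of rows with few unique words were therefore not read as amounts of mRNA, and differences of such rows between fractions can also carry reads of other copies.

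**Figure D2:**
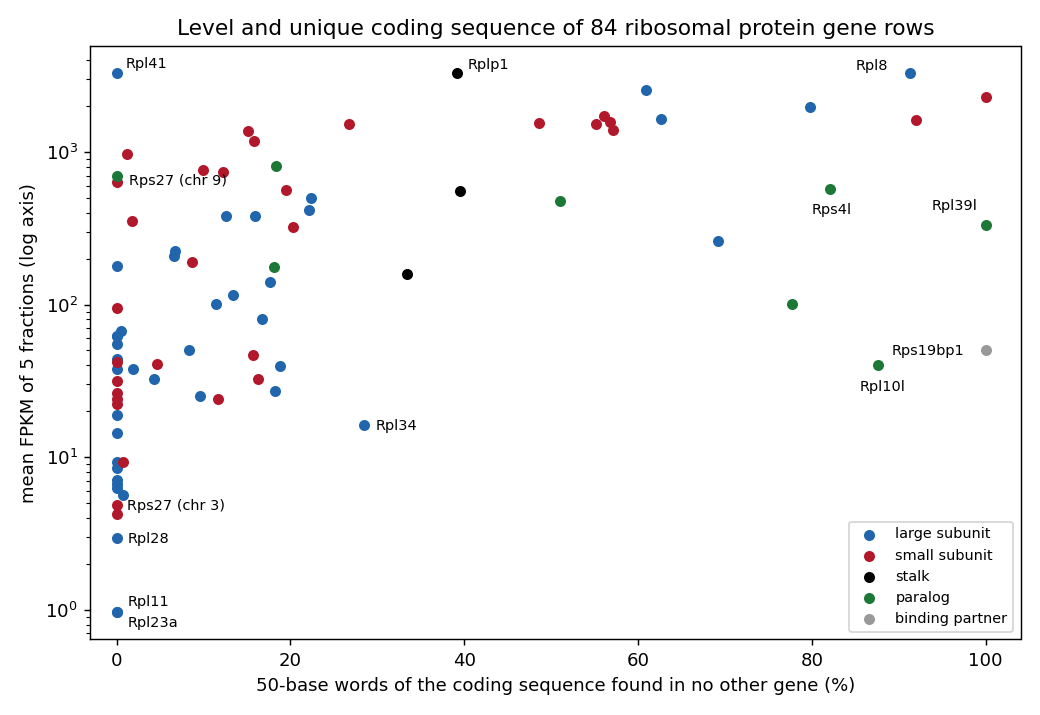
Mean FPKM of 5 fractions (log axis) against the percentage of 50-base words of the coding sequence found in no other gene, 1 point per row, coloured by class. Rows at the left edge span 0.963 to 3281 FPKM, and rows with at least 50% unique words lie between 39.9 and 3276 FPKM.

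Within the set, levels differed little between fractions. The median range over the 5 fractions was 0.33 on the log2(FPKM + 1) scale for the 84 rows, 0.54 for all 13595 rows compared and 0.38 for the 903 rows at 100 FPKM or more on average; it was 0.30 for the 44 ribosomal protein rows at that level. The set held 7.96%, 8.17% and 8.71% of all FPKM in double-negative, single-positive and double-positive cells, 8.34% in Zscan4-positive and 8.28% in Zscan4-negative cells. The ratio of the summed large subunit FPKM, without the stalk, to the summed small subunit FPKM was 0.786, 0.794 and 0.802 in the 3 states of the Esrrb/Tbx3 line, 0.767 in Zscan4-positive and 0.801 in Zscan4-negative cells.

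In the 3 states sorted on Esrrb and Tbx3, most of the genes were slightly higher with each reporter gained. The fibroblast sum of 1733, 1234 and 29.3 FPKM and the T-lineage sum of 530, 384 and 33.9 FPKM ran the other way over the same fractions, and their part in the order of the ribosomal protein genes was not tested. The order double-negative below single-positive below double-positive held for 60 of 84 rows, 71.4%, against 34.8% of all rows compared and 65.2% of rows at 100 FPKM or more. Rpl8 was at 2838, 3090 and 3731 FPKM in double-negative, single-positive and double-positive cells. Rpl13a was at 2057, 2396 and 2810 FPKM, and Rps26 at 1344, 1492 and 1731 FPKM, in that order. Each of these abundant genes was lowest in double-negative and highest in double-positive cells, by well under 2-fold. The share of the 84 rows, which are of all levels, was close to that of rows at 100 FPKM or more.

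For single-positive against double-negative cells, which differ in the Esrrb reporter, the median difference was 0.07 on the log2(FPKM + 1) scale, with 63 of 84 rows above 0, against -0.02 for all rows and 0.09 for rows at 100 FPKM or more. No ribosomal protein row was past 2-fold, where 1.82% of all rows were higher and 1.43% lower. Past a smaller size of 0.32 on the log2 scale, 4 rows were higher, where 12.0% of all rows were, and 1 was lower, where 18.2% were. The 4 were Rps4l, Rpl11, Rpl10l and Rps23, and the lower row was Rpl30. Rps23, whose protein sits at the decoding centre, was at 23.5 FPKM in single-positive and 18.5 FPKM in double-negative cells. Rpl11 was at 1.08 and 0.620 FPKM in that order, and neither Rps23 nor Rpl11 had a unique coding word. Under equal FPKM totals Rpl11 and Rps4l stayed past 0.32 higher, while Rps23, at 0.29, and Rpl10l, at 0.30, did not.

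For double-positive against single-positive cells, which differ in the Tbx3 reporter, the median difference was 0.16, with 72 of 84 rows above 0, against 0.01 for all rows and 0.12 for rows at 100 FPKM or more. None was past 2-fold higher, as were 0.346% of all rows, and Rpl30 and Rps3a1 (2.38%) were past 2-fold lower, as were 6.94% of all rows. Without 804 rows that were low outside double-negative and single-positive cells, the lower share was 2.27%. Of rows at 100 FPKM or more, 0.775% were past 2-fold higher and 1.22% lower. Past 0.32, 3 rows (3.57%) were higher, Rpl39l, Rpl10l and Rps4l, where 7.52% of all rows were. Lower were 3 rows (3.57%), Rps3a1, Rpl30 and Rpl34, where 19.8% of all rows were. Of rows at 100 FPKM or more, 8.64% were past 0.32 higher and 3.65% lower, so the lower count is near their share. All 3 higher ribosomal protein rows are paralogs. Core rows passed 0.32 under other settings, for which the share of all rows was not counted. With a pseudocount of 0.1 Rpl28 and Rpl23a did so, which made 5 rows, and with median-ratio scaling Rpl28, Rps18 and Rpl10a, which made 6. Rpl28 was at 3.28 FPKM in double-positive and 2.44 FPKM in single-positive cells, and Rpl23a at 1.34 and 0.969 FPKM in that order. Neither had a unique coding word, and at such low levels a difference depends on the pseudocount.

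Double-positive against double-negative cells combine these steps and share their columns. The median difference was 0.23, with 71 of 84 rows above 0, against -0.02 for all rows and 0.21 for rows at 100 FPKM or more. Past 2-fold, Rpl10l was higher, where 3.81% of all rows were, and Rpl30 and Rps3a1 were lower, where 12.2% were. Past 0.32, 25 rows (29.8%) were higher, where 21.3% of all rows and 33.0% of rows at 100 FPKM or more were, and 6 (7.14%) were lower, where 30.4% of all rows and 8.08% of those at 100 FPKM or more were. The 6 were Rpl30, Rps3a1, Rpl34, Rps6, Rpl3 and Rpl22l1. The counts of the 84 rows, which are of all levels, stand near the shares of rows at 100 FPKM or more. The 44 ribosomal protein rows at that level had a median difference of 0.24. With the columns scaled to equal FPKM totals, the median of all rows was -0.12 and that of the ribosomal protein rows 0.12. The distance between them was 0.25 both as reported and under this scaling. The rows past 0.32 higher then numbered 8. The share of all rows was not counted under it, so that count is not read as a result about the set. Among rows that reached 10 FPKM in at least 1 fraction, the median of all rows was 0.09 and the distance 0.15.

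**Figure D3:**
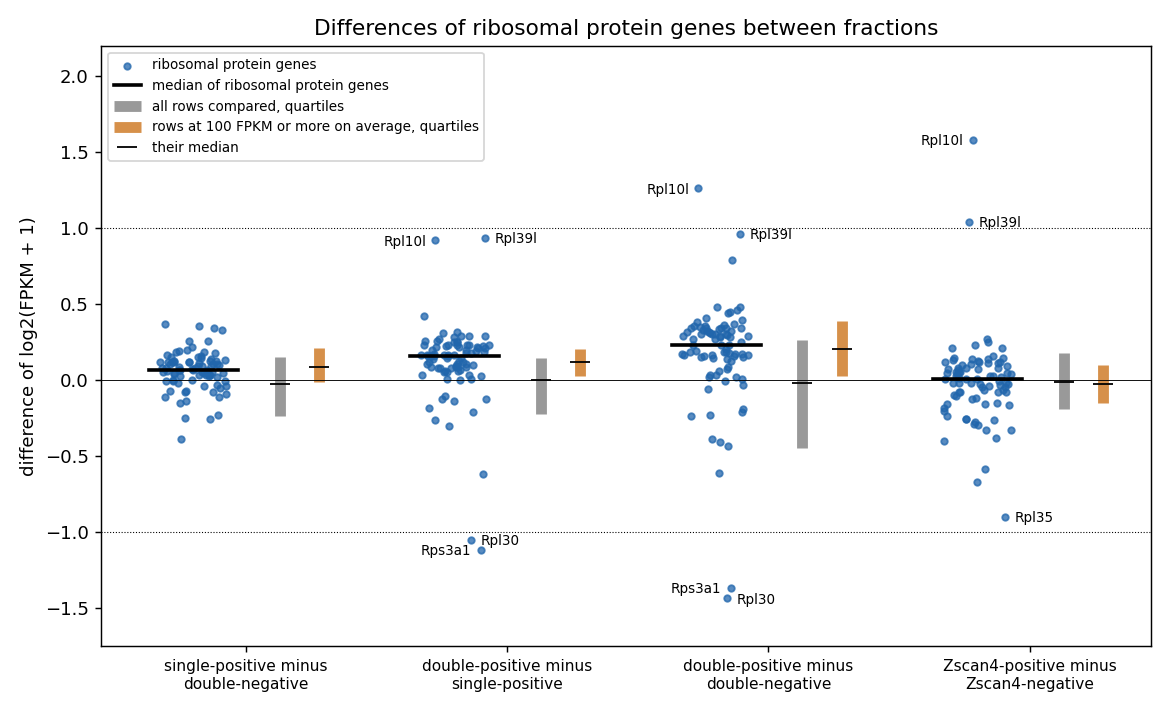
Difference of log2(FPKM + 1) for 84 ribosomal protein rows in 4 comparisons, 1 point per row with the median as a bar, beside the quartiles and median of all 13595 rows compared and of the 903 rows at 100 FPKM or more on average. Dotted lines mark 2-fold. The medians of the 84 ribosomal protein rows are 0.07, 0.16, 0.23 and 0.01 from left to right, and those of the abundant rows 0.09, 0.12, 0.21 and -0.02. In the Zscan4 sort the 44 ribosomal protein rows at 100 FPKM or more, not drawn apart, had a median of 0.07. Rpl10l, Rpl39l, Rpl30, Rps3a1 and Rpl35 stand apart.

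Between double-positive and double-negative cells the median difference was 0.23 for the 41 large subunit rows and 0.28 for the 31 small subunit rows, while that of the 3 stalk rows was -0.03, with 1 of 3 above 0. Of the stalk proteins, Rplp1 was at 2971, 3102 and 3376 FPKM in double-negative, single-positive and double-positive cells. Rplp2, its partner, was at 173, 169 and 169 FPKM, and Rplp0, which anchors both to the large subunit, was at 597, 553 and 508 FPKM, lowest in double-positive cells. Of the X-linked rows, Rps4x was at 732, 733 and 811 FPKM and Rpl39 at 361, 374 and 377 FPKM, highest in double-positive cells. Rpl36a was at 16.0, 15.1 and 17.1 FPKM and Rpl10 at 7.66, 7.04 and 6.40 FPKM, both with no unique coding word.

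Over the 84 rows of all levels, Zscan4-positive against Zscan4-negative cells showed no common shift. The median difference was 0.01, with 43 of 84 rows above 0, against -0.01 for all rows and -0.02 for rows at 100 FPKM or more; under equal FPKM totals it was -0.05. Past 2-fold, Rpl10l and Rpl39l were higher, where 3.46% of all rows were, and no row was lower, where 0.875% were. Past 0.32, the same 2 rows were higher, where 15.5% of all rows were. Lower were 7 rows (8.33%), Rpl35, Rpl28, Rpl3, Rps13, Rpl9, Rps27l and Rps12, where 13.1% of all rows were. Of rows at 100 FPKM or more, 8.97% were past 0.32 higher and 6.76% lower. Rplp0, the next highest difference by the naming rule, was at 613 FPKM in Zscan4-positive cells against 508 FPKM in Zscan4-negative cells, a difference of 0.27. Rplp1 was at 3706 and 3310 FPKM and Rplp2 at 141 and 143 FPKM in that order.

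The direction in this sort differed with the uniqueness of the sequence. The median difference was 0.08 for the 17 rows with at least 50% unique words and -0.07 for the 41 rows with under 10%, of which 28 were below 0. It was 0.07 for the 44 rows at 100 FPKM or more, of which 33 were above 0. For all 903 rows at that level the median was -0.02, with 44.9% above 0. Of the 7 lower rows, Rpl35 stood furthest out, at 29.3 FPKM in Zscan4-positive cells against 55.4 FPKM in Zscan4-negative cells, a difference of -0.90. Rpl35 lies near the tunnel exit, had 8.36% unique words, and was at 51.2, 53.2 and 62.7 FPKM in double-negative, single-positive and double-positive cells, so the Zscan4-positive value was the low one of 5. Rpl3, a protein that reaches the peptidyl transferase centre, was at 24.8 FPKM in Zscan4-positive cells against 37.7 FPKM in Zscan4-negative cells, and Rps13 was at 8.02 and 10.9 FPKM in that order. Whether shared reads take part in these differences was not tested.

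Rpl39l and Rpl10l were the 2 ribosomal protein rows past 2-fold higher in the Zscan4 sort, and both were also higher at the Tbx3 step. Rpl39l was at 197, 201 and 386 FPKM in double-negative, single-positive and double-positive cells, at 597 FPKM in Zscan4-positive and at 289 FPKM in Zscan4-negative cells. It was flat over the Esrrb step (0.03), higher over the Tbx3 step (0.94) and higher in Zscan4-positive cells (1.04, and 0.99 under equal FPKM totals). Its core partner Rpl39 stayed between 361 and 414 FPKM in all 5 fractions. The ratio of Rpl39l to Rpl39 was 0.546, 0.537 and 1.02 in the 3 states of the Esrrb/Tbx3 line, 1.44 in Zscan4-positive and 0.760 in Zscan4-negative cells, with the caution that 15.9% of the words of Rpl39 and 100% of those of Rpl39l were unique.

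Rpl10l, an intron-free paralog of Rpl10 known from mouse spermatogenesis, was at 15.7, 20.2 and 39.2 FPKM in double-negative, single-positive and double-positive cells, at 93.9 FPKM in Zscan4-positive and at 30.7 FPKM in Zscan4-negative cells. The differences were 0.34, 0.92 and 1.58 for the Esrrb step, the Tbx3 step and the Zscan4 sort. The order of the fractions was the same for both paralogs: Zscan4-positive, double-positive, Zscan4-negative, single-positive and double-negative, from high to low. That order compares columns of 2 reporter lines and has no replicate error. Rpl10 itself was at 5.47 to 7.66 FPKM with no unique coding word, so no ratio to it is read.

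The promoter sequences of both rows are shown because both were higher at the Tbx3 step and in the Zscan4 sort, although at the Esrrb step Rpl10l differed by 0.34 and Rpl39l by 0.03. They are RefSeq sequences (GRCm38.p6) of 250 bases before to 50 after the annotated start, on the gene's strand. Capitals mark matches to the letters CCGGAAG, the core of an ETS-type site, on either strand, or to CTTTCC, a pyrimidine run, on the coding strand. Rpl39l is at chr16:10169978-10170277 (plus strand) and Rpl10l at chr12:66284352-66284651 (minus strand).
Rpl39l promoter: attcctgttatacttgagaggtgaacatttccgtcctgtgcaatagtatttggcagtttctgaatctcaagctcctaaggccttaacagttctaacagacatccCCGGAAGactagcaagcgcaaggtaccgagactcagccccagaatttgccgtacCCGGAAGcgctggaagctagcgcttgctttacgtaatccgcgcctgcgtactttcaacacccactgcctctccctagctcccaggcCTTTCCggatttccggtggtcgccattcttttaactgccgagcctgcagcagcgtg
Rpl10l promoter: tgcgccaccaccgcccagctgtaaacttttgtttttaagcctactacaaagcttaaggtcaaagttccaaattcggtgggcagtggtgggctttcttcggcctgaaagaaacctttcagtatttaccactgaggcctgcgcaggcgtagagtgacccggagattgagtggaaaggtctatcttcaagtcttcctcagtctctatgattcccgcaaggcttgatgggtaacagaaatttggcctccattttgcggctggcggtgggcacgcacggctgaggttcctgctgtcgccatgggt
The Rpl39l window held CCGGAAG in 2 places and CTTTCC once, and the Rpl10l window held neither. In the set, 65 genes had a promoter in the RefSeq table, 9 of them several. A gene was counted if any of its promoters held the letters, so genes with several had more chances of a match. CCGGAAG was in 26 of these 65 genes (40%) and in 9.93% of the 27025 genes with a promoter, and CTTTCC in 27 (41.5%) and in 16.0%. CTCTTTC, which overlaps CTTTCC where it is followed by C, was searched on the coding strand and was in 13 (20%) and in 4.60%. AAGATGGC, the YY1-type letters, was searched on both strands and was in 6 (9.23%) and in 3.19%. A match is a description of letters, not a binding site. For comparison, 60 bases around the annotated start, 30 on each side, are shown for core genes with such a run near it. Capitals mark either pyrimidine run, or the overlap of both. They are Rpl13a at chr7:45128716-45128775 (minus strand), Rps26 at chr10:128626477-128626536 (minus strand) and Rpl35a at chr16:33056452-33056511 (plus strand).
Rpl13a start: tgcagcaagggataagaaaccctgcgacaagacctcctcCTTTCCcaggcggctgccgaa
Rps26 start: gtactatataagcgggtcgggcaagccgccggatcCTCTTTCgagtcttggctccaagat
Rpl35a start: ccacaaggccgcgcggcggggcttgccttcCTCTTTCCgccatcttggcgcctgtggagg

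Of the other paralogs, Rps4l lies on chromosome 6, is annotated by GENCODE as a transcribed processed pseudogene of the Rps4 type, and had 82.0% unique words over its transcript. It was at 391, 505 and 677 FPKM in double-negative, single-positive and double-positive cells, at 674 FPKM in Zscan4-positive and at 619 FPKM in Zscan4-negative cells. It was higher at each step of the Esrrb/Tbx3 line, by 0.37 and 0.42. The table's row extends well beyond the GENCODE gene, from 148047416 to 148444352 against 148354656 to 148355598, so other transcripts may be counted in it. Rpl22l1, which can take the place of Rpl22 in the ribosome, was at 197, 165 and 150 FPKM in the 3 states, at 185 FPKM in Zscan4-positive and at 186 FPKM in Zscan4-negative cells, while Rpl22 was at 238, 258 and 288 FPKM in the 3 states. Their ratio was 0.828, 0.640 and 0.523 in the 3 states, 0.735 in Zscan4-positive and 0.681 in Zscan4-negative cells, with the caution that 18.1% of the words of Rpl22l1 and 69.2% of those of Rpl22 were unique.

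Rps27l, a paralog of Rps27 that p53 is known to induce, was at 467, 455 and 465 FPKM in the 3 states, at 437 FPKM in Zscan4-positive and at 547 FPKM in Zscan4-negative cells. Rpl36al was at 743 to 847 FPKM and its X-linked partner Rpl36a at 10.9 to 17.1 FPKM, with 18.4% and 0% unique words. The Rpl36al row extends beyond the GENCODE gene, from 69182734 to 69199868 against 69182731 to 69184083, so other transcripts may be counted in it. Rpl7l1, a nucleolar factor of large subunit assembly, was at 81.3 to 114 FPKM, against 470 to 525 FPKM for Rpl7.

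**Figure D4:**
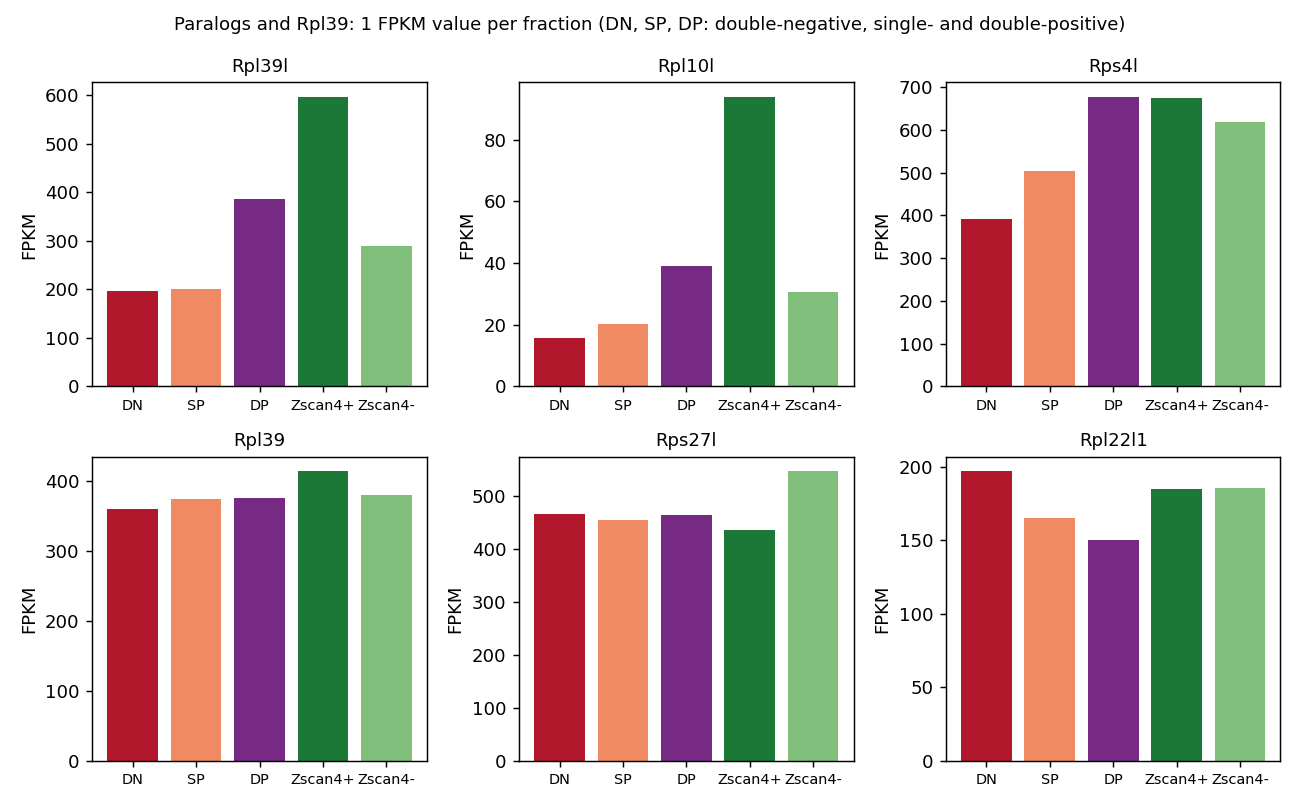
FPKM of Rpl39l, Rpl10l, Rps4l, Rpl39, Rps27l and Rpl22l1 in 5 sorted fractions, 1 bar per fraction and no replicate error. Rpl39l and Rpl10l are highest in Zscan4-positive cells, at 597 and 93.9 FPKM, while Rpl39 stays between 361 and 414 FPKM.

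Of the 6 rows past 0.32 lower in double-positive cells, Rpl30, Rps3a1, Rpl34 and Rps6 were highest in double-negative and single-positive cells. The fibroblast and T-lineage sums were also highest there. Rpl3 and Rpl22l1 were above their single-positive level in Zscan4-negative cells. Rpl30, which binds a kink-turn in its own mRNA in yeast, was at 148, 113 and 54.2 FPKM in double-negative, single-positive and double-positive cells, at 43.8 FPKM in Zscan4-positive and at 45.2 FPKM in Zscan4-negative cells. Rps3a1, a small subunit protein, was at 42.8, 35.9 and 16.0 FPKM, at 12.3 FPKM and at 13.8 FPKM in the same fractions. Both were high in double-negative and single-positive cells and lower, at like levels, in the other 3. The unique share of coding words was 16.7% for Rpl30 and 11.7% for Rps3a1. It was 28.5% for Rpl34, 18.1% for Rpl22l1, 4.30% for Rpl3 and 0% for Rps6. Whether reads of other copies take part in these differences was not tested. Single-positive cells held 76.5% of the double-negative level for Rpl30 and 83.7% for Rps3a1, and 71.2% for the fibroblast sum and 72.4% for the T-lineage sum. Double-positive cells held 36.6% and 37.4% for the genes, and 1.69% and 6.40% for the sums. The T-lineage sum mixes unlike genes. Of its 33.9 FPKM in double-positive cells, Lck gave 20.9 FPKM. Gzma was at 223, 151 and 2.78 FPKM in double-negative, single-positive and double-positive cells, but Cd2 was at 4.49, 5.15 and 3.36 FPKM. After the double-positive level was subtracted, the single-positive level was 0.629 of the double-negative one for Rpl30 and 0.740 for Rps3a1, beside 0.707 for the fibroblast and 0.705 for the T-lineage sum. The same value was 1.01 for Rpl34, 0.444 for Rps6, 0.607 for Rpl3, 0.312 for Rpl22l1 and 0.642 for the sum of 3 general pluripotency genes, Pou5f1, Sall4 and Sox2, which was lowest in double-negative cells. Over the 6 rows the value ran from 0.312 to 1.01. Each rests on 1 FPKM value per fraction, and the cause of these values was not tested.

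Of the fibroblast genes, 10 of 12 reached 1 FPKM, and all 10 were past 2-fold lower in double-positive cells, set against double-negative cells, as were 7 of 8 T-lineage genes. Neither the origin of these transcripts nor its part in the ribosomal protein rows was tested. Rpl34, a large subunit protein, was at 19.5, 19.6 and 12.4 FPKM in the 3 states, at 14.6 FPKM in Zscan4-positive and at 15.4 FPKM in Zscan4-negative cells, so its single-positive level equalled the double-negative one. Rps6 was at 5.40, 4.48 and 3.74 FPKM in the 3 states, at 3.63 FPKM in Zscan4-positive and at 3.88 FPKM in Zscan4-negative cells. Rpl3 was at 37.4, 33.7 and 28.0 FPKM in the 3 states, at 24.8 FPKM in Zscan4-positive and at 37.7 FPKM in Zscan4-negative cells. Its levels in Zscan4-negative and double-negative cells were alike, and the fibroblast sum was 21.1 and 1733 FPKM in that order. Rpl22l1, given above, was higher in both Zscan4 fractions than in single-positive cells.

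**Figure D5:**
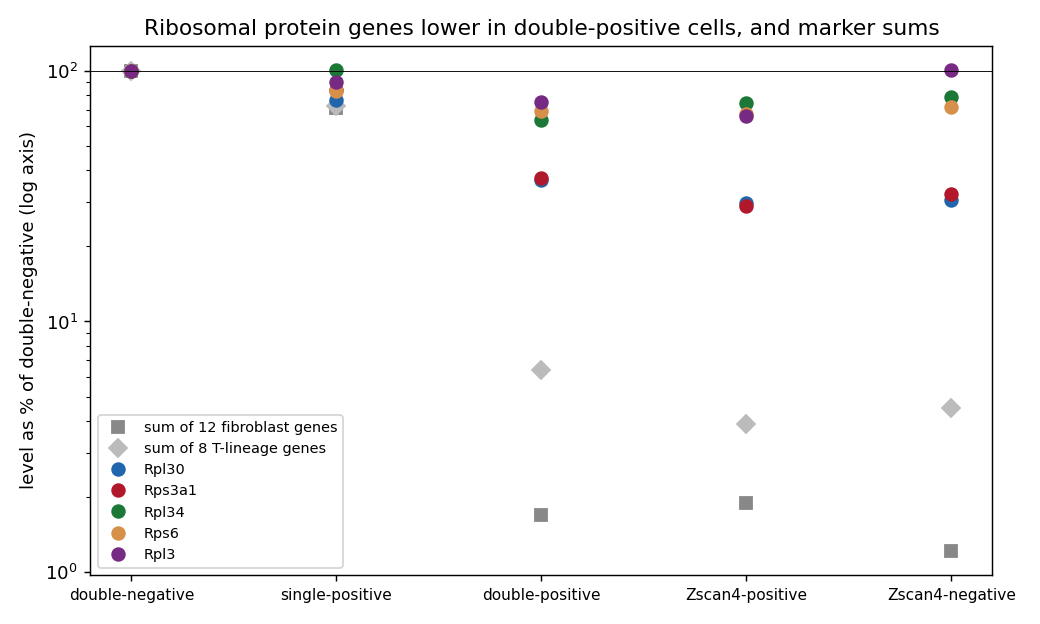
Level in each fraction as a percentage of the level in double-negative cells (log axis) for the sums of 12 fibroblast and 8 T-lineage genes and for Rpl30, Rps3a1, Rpl34, Rps6 and Rpl3. Rpl30 and Rps3a1 stand at 76.5% and 83.7% in single-positive and at 36.6% and 37.4% in double-positive cells, where the fibroblast sum stands at 1.69%.

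Some ribosomal proteins carry other symbols. Gnb2l1, which encodes the small subunit scaffold RACK1 and had 98.6% unique words, was at 2120, 2161 and 2346 FPKM in double-negative, single-positive and double-positive cells, at 2468 FPKM in Zscan4-positive and at 2209 FPKM in Zscan4-negative cells. Fau, a fusion of a ubiquitin-like and a small subunit protein, was at 36.8 to 46.8 FPKM and had no unique word.

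Lists of genes linked to cytosolic or mitochondrial ribosomes had positive medians in double-positive against double-negative cells. Some of these lay above and some below the median of rows at 100 FPKM or more, 0.21. Of 20 ribosome biogenesis genes, 9 were past 0.32 higher in double-positive cells, set against double-negative ones, where 21.3% of all rows and 33.0% of rows at 100 FPKM or more were, and none past 2-fold or lower, with a median difference of 0.31. Rrp9, a protein of the U3 particle, was at 107 FPKM in double-positive and 70.4 FPKM in double-negative cells, and Nop58, a box C/D core protein, at 246 and 168 FPKM in that order. Of 11 RNA polymerase I genes 5 were past 0.32 higher, against the same shares, with a median of 0.25. The medians were 0.15 for 6 elongation factors, 0.16 for 10 other genes with terminal oligopyrimidine mRNAs, 0.12 for 74 mitochondrial ribosomal protein genes and 0.27 for 9 genes that control terminal oligopyrimidine mRNAs or ribosome supply. Of 5 housekeeping rows with many processed copies, the median was -0.18, the value of Tpt1. Ldha was at -0.55, Hmgb1 at -0.25, and Gapdh and Eef1a1 at 0.23 each. This list is not independent, because Tpt1 and Eef1a1 are also in the oligopyrimidine and elongation factor lists. Relative to the median of rows at 100 FPKM or more, 0.21, the ribosomal protein median of 0.23 thus lay between these lists.

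In Zscan4-positive against Zscan4-negative cells, the medians of the same lists were 0.04 for ribosome biogenesis, -0.02 for RNA polymerase I, 0.01 for elongation factors, 0.01 for other terminal oligopyrimidine mRNAs, -0.11 for mitochondrial ribosomal proteins, 0.03 for the control genes and -0.14 for the housekeeping rows. Of the 74 mitochondrial ribosomal protein genes, 9 were lower by over 0.32, where 13.1% of all rows were, and none was higher by as much, where 15.5% were. The lower count is near the share of all rows. Myc, a transcriptional activator of ribosome genes, was at 25.4 FPKM in Zscan4-positive cells against 44.5 FPKM in Zscan4-negative cells, and at 46.9, 36.9 and 30.2 FPKM in double-negative, single-positive and double-positive cells. Mycn, its relative, was at 151 and 164 FPKM in the Zscan4 sort and at 122, 154 and 148 FPKM in the 3 states. Of the 5 fractions, Myc was lowest in Zscan4-positive cells, and within the Esrrb/Tbx3 line it was lowest in double-positive cells.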

How the data were processed

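Per the labels' protocols, Qiagen RNeasy columns gave the RNA and NEBNext Ultra reagents the libraries, and a HiSeq2500 read them, per the design text. The submitters' processing notes name TopHat2 2.0.14, Cuffdiff 2.2.1, Cufflinks and bcl2fastq 1.8.4, and the build mm10. The deposited values are the authors' FPKM, with a single column for each fraction that merges its 2 libraries. Not given in the sources used here are the annotation, read length, library normalization and the treatment of multiply mapped reads. FPKM keep no depth, so no interval could be given, and no count test or replicate check was run.

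Rows were compared where any fraction reached 1 FPKM. Each of 4 comparisons is a difference of log2(FPKM + 1), which understates low genes, with size rules of 2-fold and of 0.32 on the log2 scale, computed with Python 3.11.15, pandas 2.3.3 and numpy 2.4.6 and checked on simulated data. The planned tests over single libraries could not be made from 1 value per fraction. Coding words were counted on both strands of GENCODE M21 transcripts, leaving out genes that overlap the row's own locus. Coordinates are given from 1. Promoters are RefSeq sequences of GRCm38.p6. No value column was left unused. The members and gene lists were chosen with earlier results of these data known.

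The genes named were the 3 highest and 3 lowest differences per comparison among rows whose higher fraction reached 5 FPKM, rows past 2-fold, the 5 highest and 5 lowest levels, paralogs with their partners, stalk proteins and X-linked rows. Other genes, such as Rpl28, Rpl9, Rps12, Rps26, Rpl7a and Rpl38, were named after their values were seen. A few genes are not reported here.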

Additional observations from a re-analysis of the deposited data

How the results depend on the processing

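No value has a replicate error, so medians were held to a tolerance of 0.05 (log2) and shares to 5% of their value. No paired analysis was possible because each fraction is 1 merged value and the columns carry no replicate number; for the same reason no replicate could be left out and no count test was run. Equal FPKM totals moved the most. Under them the median difference of the ribosomal protein genes was 0.082 for double-positive against single-positive, 0.12 for double-positive against double-negative and -0.046, a turned sign, for Zscan4-positive against Zscan4-negative cells. The counts past 0.32 were then 2 higher for single-positive against double-negative, 5 lower for double-positive against single-positive and 8 higher for double-positive against double-negative cells. In Zscan4-positive cells 1 row, Rpl10l, was past 2-fold higher, with Rpl39l at 0.99. The median of all rows moved as well, to -0.12 for double-positive against double-negative cells. Shares of all rows were not counted under the alternative settings, so counts under them are not read as results about the set. For double-positive against single-positive cells, the rows past 0.32 higher numbered 5 with a pseudocount of 0.1 and 6 with median-ratio scaling, against 3, and the added rows were core genes. Of these, Rpl28 and Rpl23a were low, at 3.28 and 1.34 FPKM in double-positive cells. Rows with at least 50% unique words, a choice made after the levels were seen, had a median of 0.31 for double-positive against double-negative cells and of 0.075 in the Zscan4 sort, where rows at 100 FPKM or more had 0.073. Of protein-coding FPKM alone, the set held 9.74%, 9.93% and 10.5% in double-negative, single-positive and double-positive cells, 10.3% in Zscan4-positive and 10.003% in Zscan4-negative cells. Dividing by larger totals in double-positive and Zscan4-positive cells lowers their values by construction; beyond that, the cause of these shifts was not tested. Filters of 0 and 10 FPKM and summed rows of 1 symbol moved none of these medians beyond the tolerance and no count by more than 1.5 times. Of 144 values of single named genes under the alternatives, 143 kept their sign and their side of 2-fold, and the exception was Rpl39l as given.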
